A study of Oryza sativa with 40 samples.

Results

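The alternative oxidase and respiratory bypass genes of rice were taken by locus identifier: AOX1A (LOC_Os04g51150), AOX1B (LOC_Os04g51160), AOX1C (LOC_Os02g47200), UCP1 (LOC_Os11g48040) and NDA1 (LOC_Os01g61410). All 5 were among the 19308 genes measured. The gene symbols come from that list, because the table pairs each locus with a product name only.

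Plants of Oryza sativa cultivar IR64 were grown hydroponically in a glasshouse at 30/25 °C (day/night), in 12 tanks. Tanks were then moved to 40/35 °C (hot) or to 25/20 °C (cold), or stayed at 30/25 °C (warm), with 4 tanks per temperature. The move came 3 h into the day, and the middle section of leaves that had already formed before it was collected by day for total RNA sequencing. The 40 libraries form 10 groups of 4: hot at 2, 6 and 24 h, cold at 2, 6 and 24 h, and warm at 0, 2, 6 and 24 h after the move. All groups share the cultivar and the warm growth before the move, and no genotype or chemical was varied. The tank behind each library is not labelled, so p-values measure the spread between these libraries, which may be in part technical.

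Plant mitochondria hold side routes around the proton-pumping complexes of the respiratory chain. Alternative oxidase passes electrons from ubiquinol straight to oxygen, so that complexes III and IV are skipped and no proton is pumped at that step. Type II NAD(P)H dehydrogenases feed electrons into ubiquinone without complex I, NDA proteins from the matrix side and NDB proteins from the outer side of the inner membrane. Uncoupling proteins belong to the mitochondrial carrier family and let the proton gradient run down without ATP synthesis. In leaves these routes are known for keeping carbon metabolism running when reducing power exceeds the demand for ATP. In rice, transcripts of the neighbouring AOX1A and AOX1B genes have been described as induced by low temperature, and in Arabidopsis NDA1 is known as a light-dependent gene.

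On build IRGSP-1.0, AOX1A spans 30287153 to 30289864 on chromosome 4, and AOX1B follows at 30291461 to 30293040, with 1596 bases between them. Both lie on the minus strand, as does AOX1C at 28812391 to 28814078 on chromosome 2. The table names the product of all 3 AOX loci an unclassified putative transposon protein and marks them as transposable elements. In a RefSeq gene table of another assembly (ASM3414082v1), the AOX1a gene of chromosome 4 has a span of 2712 bases, the same span as the LOC_Os04g51150 locus. UCP1 lies on chromosome 11 at 28961156 to 28965101 on the plus strand and is named a mitochondrial carrier protein. NDA1 lies on chromosome 1 at 35508867 to 35513112 on the plus strand and is named a mitochondrial NADH-ubiquinone oxidoreductase. Coordinates are gene spans, and exons or UTRs are not marked in the table.

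Reads assigned to genes ran from 1830817 to 9628451 per library (median 5853252), and 3 reads stood for 0.293 to 2.06 CPM (reads per 1e6 assigned reads, after the library scaling). The 20 leaf mesophyll markers, Rubisco small chain and chlorophyll-binding proteins, took 3.65% to 16.2% of the assigned reads. By their names, hot leaves were sequenced on lanes 2 and 3, cold leaves on 3 and 4, and warm leaves on 1 and 2. No lane held both cold and warm leaves, so lane and the cold shift cannot be told apart by a within-lane value. Warm 0 h replicate 1 and hot 24 h replicate 1 stood apart from their group mates, with the lowest mean r of log2 levels to them (0.860 and 0.894). No cut-off was set, and hot 24 h replicate 2 came close behind (0.905). The samples are bulk leaf RNA, in which fewer cells of a type and less RNA per cell cannot be told apart.

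AOX1C, NDA1 and UCP1 passed tests of hot against warm leaves, and AOX1A and AOX1B passed no test. AOX1C was 3.77-fold lower in hot leaves than in warm leaves at 6 h, NDA1 was 1.70-fold lower at that hour, and UCP1 was 1.80-fold higher at 2 h. Of these calls, only that for AOX1C held under each alternative run and with each library left out. Those for NDA1 and UCP1 were lost with lane as a term (limma adjusted p = 0.419 and 0.0598). At 24 h of heat, and at every hour of cold, 0 of the 5 genes passed, and neither did any other gene (0% of all genes called). AOX1C and NDA1 also swung strongly through the warm day, with their lowest levels at 6 h, so each shift is read against warm leaves of the same hour.

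**Figure D1:**
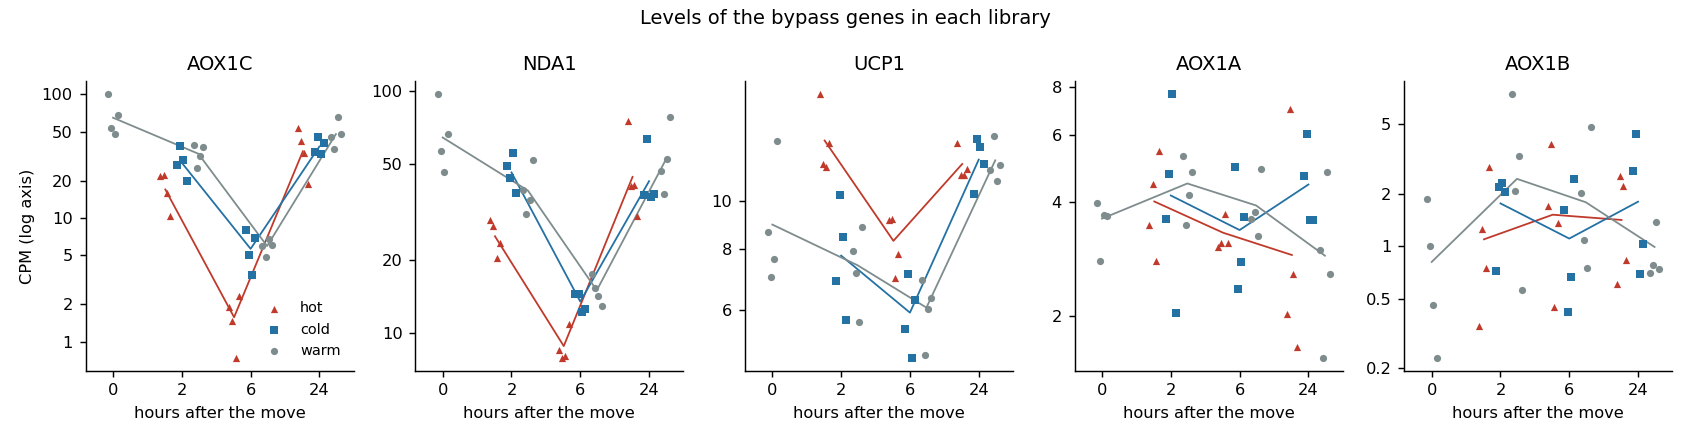
Level of each bypass gene in each of the 40 libraries, in CPM on a log axis, against hours after the move (evenly spaced); triangles are hot, squares cold and circles warm libraries, and lines join the group means of the log2 values. AOX1C and NDA1 dip at 6 h at all 3 temperatures, with the hot libraries lowest, while the hot UCP1 libraries at 2 h lie above the warm ones.

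AOX1C, the alternative oxidase with the highest mean level in these leaves, had 100, 53.5, 47.6 and 68.4 CPM in the 4 warm libraries at 0 h. At 2 h warm leaves had 39.2, 25.3, 31.9 and 37.4 CPM, and at 6 h they had 5.90, 4.85, 6.75 and 6.05 CPM. At 24 h, the same time of day as the start, warm leaves had 45, 36, 65.9 and 48.1 CPM. The warm 6 h libraries all lay far below those of the other hours, and those of 0 and 24 h overlapped. Over the 4 warm hours AOX1C differed with an adjusted p of 5.44e-11 (limma F test over all genes), and the log2 level at 6 h was 3.45 ± 0.31 (SE) below that at 0 h, a 10.9-fold difference. Of all genes, 44.7% passed the test over the warm hours, so differences between these hours were common, and 3 of the 5 bypass genes passed it. The test also counts a difference between 0 and 24 h, the same time of day.

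In hot leaves AOX1C had 21.8, 22.4, 16 and 10.5 CPM at 2 h, against the 25.3 to 39.2 CPM of warm leaves at that hour. All 4 hot libraries lay below all 4 warm ones, and 20% of all genes had groups that did not overlap, in either direction. The log2 change was -0.96 ± 0.31 (SE, n = 4 each, limma adjusted p = 0.0475), and of all genes 8.20% passed in this comparison and 4.58% were called lower. That call rested on little: it was lost with lane as a term (-0.83, adjusted p = 0.197) and when any of hot 2 h replicates 1, 3 and 4 or warm 2 h replicates 1, 3 and 4 was left out (changes of -1.08 to -0.73, adjusted p up to 0.213). Within lane 2, 2 hot libraries lay 0.76 below 1 warm library on the log2 scale.

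At 6 h AOX1C fell to 1.92, 1.47, 0.741 and 2.34 CPM in hot leaves, against 5.90, 4.85, 6.75 and 6.05 CPM in warm leaves. Those hot values rest on 17, 8, 5 and 12 reads, all above the floor of 3 reads. The hot and warm groups did not overlap, as held for 20.6% of all genes in either direction. The log2 change was -1.91 ± 0.31 (95% interval -2.54 to -1.29, limma adjusted p = 0.000105), which ranked 78 by p among all genes, while 6.90% of genes passed in this comparison, 4.51% called lower and 2.39% called higher. The call held in each alternative that was run and without each of the 8 libraries. With lane as a term the change was -1.54 (adjusted p = 0.0184), and within lane 2, 1 hot library lay 1.71 below the mean of 2 warm libraries.

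At 24 h AOX1C was above its 6 h level at both temperatures. Hot leaves had 53, 42.3, 33.7 and 18.9 CPM, and the warm leaves had 36 to 65.9 CPM. The groups overlapped, and the log2 change was -0.46 (95% interval -1.09 to 0.17, limma adjusted p = 0.879). Of all genes, 0% passed at 24 h of heat with limma on the deposited values, 1206 had an unadjusted p under 0.05, and voom weights on recovered reads gave 0 calls as well. The AOX1C change at 24 h differed from that at 2 h by 0.50 (95% interval -0.39 to 1.39, limma adjusted p = 0.623), in a comparison in which 0.834% of genes passed.

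AOX1C was not called in cold leaves at any hour. Cold leaves had 26.7, 38.2, 29.6 and 20 CPM at 2 h, 8.01, 5.01, 3.45 and 6.87 CPM at 6 h, and 34, 44.9, 32.7 and 40.7 CPM at 24 h. Each of these groups overlapped the warm group of its hour. The log2 changes were -0.24, -0.07 and -0.33, and their 95% intervals lay between -0.96 and 0.55. With lane as a term all 3 turned to higher in cold (0.46, 0.70 and 0.51), none of them called, so no direction can be given.

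The direct comparison of the shifts takes its difference from no warm library, while its SE pools the spread of all 10 groups. At 6 h AOX1C was lower in hot than in cold leaves by 1.84 ± 0.31 on the log2 scale (limma adjusted p = 0.000159), and all 4 hot libraries lay below all 4 cold ones. Of all genes, 8.28% passed in this comparison (5.11% lower and 3.17% higher) and 25.5% had groups that did not overlap. At 2 h the difference was -0.72 (95% interval -1.35 to -0.09, adjusted p = 0.115), a value that passed with lane as a term (-1.29, adjusted p = 0.0349).

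**Figure D2:**
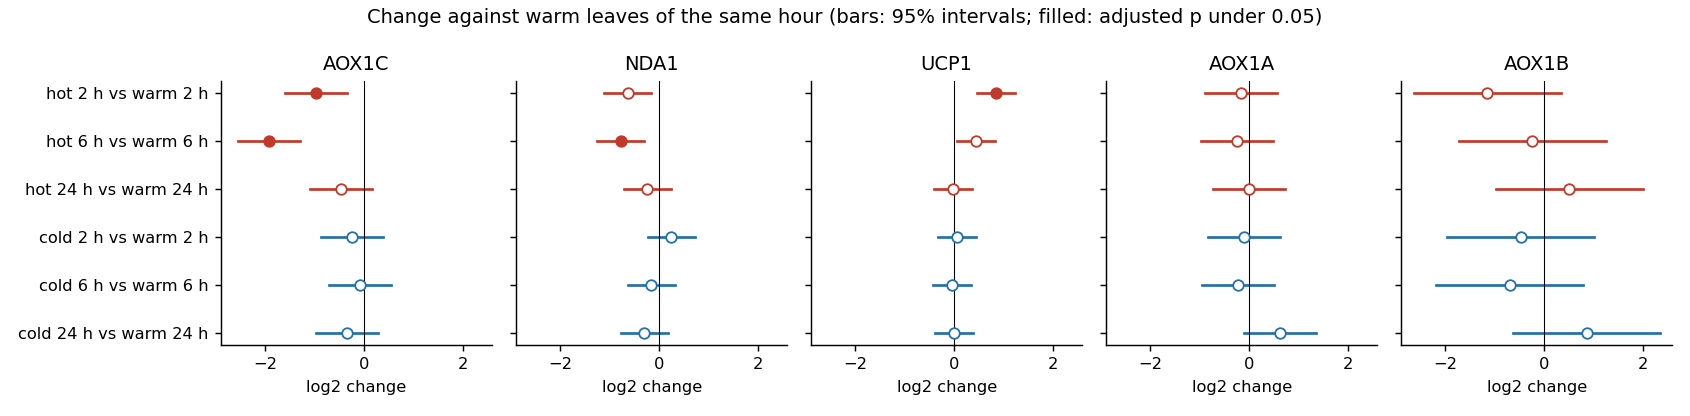
Log2 change of each bypass gene in hot (red) and cold (blue) leaves against warm leaves of the same hour; points are fitted changes, bars are 95% intervals, and filled points have an adjusted p under 0.05. Filled points appear for AOX1C at 2 and 6 h, NDA1 at 6 h and UCP1 at 2 h of heat, and every cold point is open.

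AOX1A and AOX1B, the neighbouring pair on chromosome 4, were expressed at low levels throughout. AOX1A ran from 1.56 to 7.68 CPM over the 40 libraries and AOX1B from 0.229 to 7.42 CPM, and AOX1B had 3 reads or fewer in 8 libraries. By mean log2 level, 29.4% of all genes lay below AOX1A and 16.2% below AOX1B, against 60.8% below AOX1C. Among the 714 genes whose product name holds transposon protein, AOX1C ranked 137, AOX1A 266 and AOX1B 392. The copies resemble each other, and how reads that match both were counted is not given in the sources used here, so the split of reads between them is uncertain.

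Neither gene of the pair was called at any hour of cold. At 24 h AOX1A had a range of 3.58 to 6.05 CPM in cold leaves, against 1.56 to 4.8 CPM in warm leaves. The groups overlapped only through warm 24 h replicate 3, at 4.8 CPM from 7 reads in the library with the fewest assigned reads. The other warm libraries had 2.99, 1.56 and 2.59 CPM, all below the lowest cold library. The log2 change was 0.62 (95% interval -0.10 to 1.35, limma adjusted p = 0.706). With each library left out the change ran from 0.354 to 0.9 and did not pass (limma adjusted p of 0.673 or more). AOX1B had 0.688 to 4.4 CPM in cold leaves and 0.703 to 1.37 CPM in warm leaves at 24 h, a log2 change of 0.86 with a wide interval of -0.63 to 2.35 (adjusted p = 0.821). At 2 and 6 h of cold the fitted changes of both genes lay below 0, at -0.10 and -0.21 for AOX1A and at -0.47 and -0.69 for AOX1B. Cold comparisons had 0% of all genes called at 2, 6 and 24 h with limma, where 1251, 869 and 1457 genes had an unadjusted p under 0.05 and voom weights called 4, 2 and 0 genes. These intervals do not show that the pair was unaffected, since for AOX1B they reach past a 4-fold change.

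Heat gave no call for the pair either. AOX1A changed by -0.16, -0.24 and 0.01 on the log2 scale at 2, 6 and 24 h of heat, and AOX1B by -1.15, -0.24 and 0.51 (limma adjusted p of 0.353 to 0.999 over these 6 values). At 2 h AOX1B ranged from 0.349 to 2.85 CPM in hot leaves and from 0.562 to 7.42 CPM in warm leaves, so the groups overlapped widely. The warm hours showed no call for AOX1A (limma adjusted p = 0.455) or AOX1B (adjusted p = 0.204). In the order of the 10 group means, each neighbouring pair of groups overlapped for both genes, with warm 2 h highest and warm 24 h (AOX1A) or warm 0 h (AOX1B) lowest.

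Set against each other per kilobase of gene span, AOX1C averaged 16.8 CPM per kb over the 40 libraries, AOX1A 1.40 and AOX1B 1.09. Gene span includes introns, so these levels are approximate. AOX1C lay above AOX1A in 38 of the 40 libraries, and both exceptions were hot 6 h libraries. In hot leaves the share of AOX1C in the summed level of the 3 AOX genes was 80.6% ± 12.6 at 2 h, 28.9% ± 10.3 at 6 h and 90.6% ± 4.5 at 24 h (SD, n = 4). In cold leaves it was 85.8% ± 4.1, 63.0% ± 6.5 and 88.4% ± 4.3 at those hours. In warm leaves it was 95.4% ± 0.9 at 0 h, 84.6% ± 5.5 at 2 h, 57.1% ± 11.4 at 6 h and 94.7% ± 0.7 at 24 h. At 6 h the hot libraries held 19.5% to 40.8% and the warm ones 42.6% to 70.5%, which did not overlap. The share uses the same AOX1C values as the fall at 6 h (5 to 17 reads in hot libraries), so it is not a separate result.

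**Figure D3:**
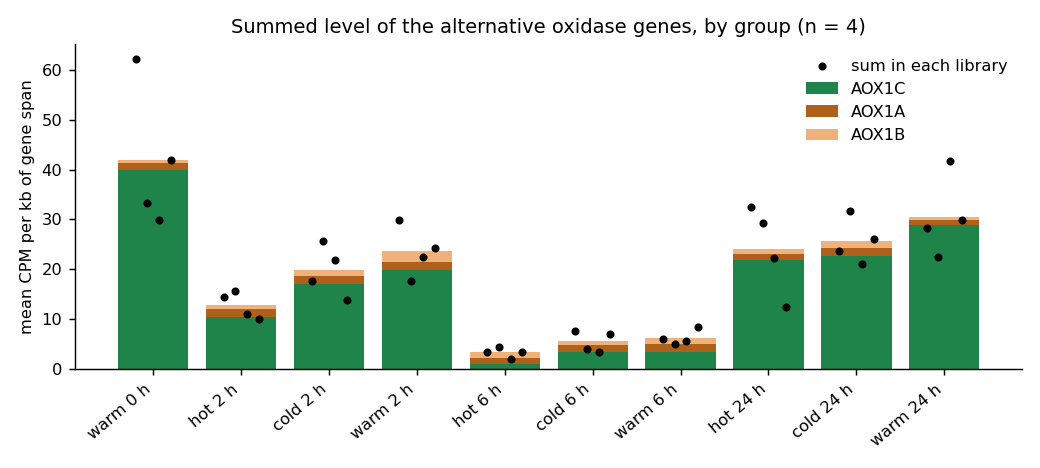
Mean level of the 3 alternative oxidase genes in each group, in CPM per kb of gene span, stacked as AOX1C, AOX1A and AOX1B (n = 4 libraries per group); black points are the sum in each library. AOX1C makes up most of the bar in every group except hot 6 h, where its share was 28.9%.

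NDA1, the dehydrogenase on the matrix side, followed a course much like AOX1C. Warm leaves had 97.1, 56.5, 46.4 and 66.5 CPM at 0 h and 39.1, 31, 35.5 and 51.9 CPM at 2 h. They had 17.6, 15.4, 14.3 and 12.9 CPM at 6 h and 46.6, 37.6, 52.2 and 78.1 CPM at 24 h. As for AOX1C, the 6 h libraries were lowest, and those of 0 and 24 h overlapped. The warm hours differed with an adjusted p of 1.25e-08 (limma F test), and the log2 level at 6 h was 2.10 ± 0.23 (SE) below that at 0 h, a 4.29-fold difference.

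In hot leaves at 6 h NDA1 had 8.46, 7.90, 8.01 and 10.9 CPM, against 17.6, 15.4, 14.3 and 12.9 CPM in warm leaves. The groups did not overlap, as held for 20.6% of all genes in either direction. NDA1 fell by 0.77 ± 0.23 (SE) on the log2 scale at this hour (limma adjusted p = 0.0398). With AOX1C, 2 of the 5 bypass genes were called lower at 6 h of heat, beside 4.51% of all genes. The call was near the threshold: the adjusted p was 0.0529 with 1 added to the CPM, 0.0689 with libraries shifted to 1 median, 0.0972 with voom weights and 0.419 with lane as a term (-0.55). It was also lost when any of hot 6 h replicates 1, 2 and 3 or warm 6 h replicates 1, 2 and 3 was left out (changes of -0.79 to -0.69, adjusted p up to 0.139), and within lane 2, 1 hot library lay 0.68 below the mean of 2 warm ones.

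At 2 h NDA1 had 29.3, 27.8, 20.3 and 23.6 CPM in hot leaves, against 39.1, 31, 35.5 and 51.9 CPM in warm leaves. Again no hot library reached a warm one, and 20.0% of all genes had groups that did not overlap, in either direction. The log2 change was -0.63 (95% interval -1.10 to -0.15), with an adjusted p of 0.0908 (limma) that did not pass. It passed with quantile normalization (0.0490), with only these groups fitted (0.0374) and without the libraries that stood apart (0.0278). At 24 h hot leaves had 75, 40.6, 40.8 and 30.3 CPM, which overlapped the warm leaves (log2 change -0.23, 95% interval -0.71 to 0.25).

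NDA1 was not called in cold leaves at any hour. Cold leaves had 49.1, 43.5, 55.5 and 37.8 CPM at 2 h. They had 14.5, 14.5, 12.2 and 12.5 CPM at 6 h and 37.1, 63.4, 36.3 and 37.5 CPM at 24 h. All 3 groups overlapped warm leaves, and the log2 changes of 0.25, -0.15 and -0.29 had 95% intervals between -0.77 and 0.73. With lane as a term the changes at 6 and 24 h turned to 0.27 and 0.17. None of the 3 changes was called, so no direction can be given at any hour of cold. Between the shifts, NDA1 was lower in hot than in cold leaves at 2 h by 0.88 ± 0.23 on the log2 scale (limma adjusted p = 0.0097), with all 4 hot libraries below the cold ones. Of all genes, 15.1% passed in that comparison, 8.32% were called lower and 21.9% had groups that did not overlap. The NDA1 call held without each of the 8 libraries and with lane as a term (-1.20, adjusted p = 0.0119). At 6 h the difference of -0.61 had an adjusted p of 0.104 (limma), and it passed with only these groups fitted (0.0118) and without the libraries that stood apart (0.0334). The hot libraries again lay below all cold ones, as groups did not overlap for 25.5% of all genes in either direction.

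AOX1C and NDA1 ran together over the 40 libraries, with a Pearson r of 0.957 and a Spearman rho of 0.931 between their log2 levels. NDA1 ranked 14 among 13346 genes in likeness to AOX1C. The libraries share hours and temperatures, so much of that r follows the groups, and between deviations from the group means r was 0.62. AOX1A and AOX1B had an r of 0.47 and an r of 0.44 between deviations. The remaining pairs of bypass genes had r between -0.16 and 0.47.

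**Figure D4:**
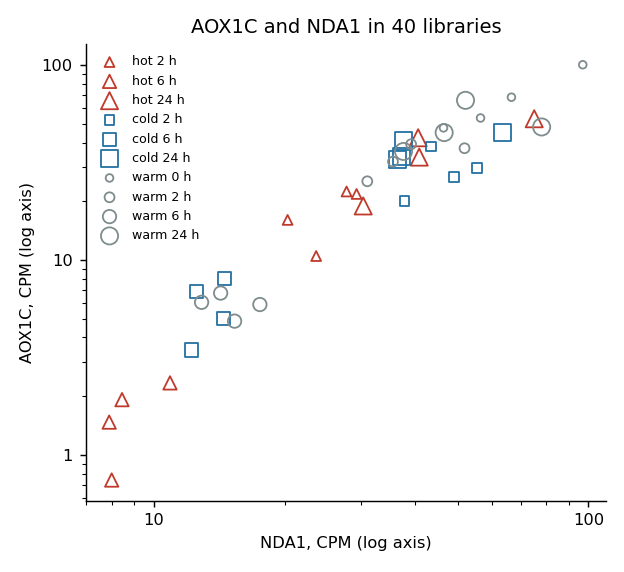
AOX1C against NDA1 in the 40 libraries, both in CPM on log axes; the marker shape and colour give the temperature and the size gives the hour. The 6 h libraries form the lower group and the hot 6 h libraries lie lowest, between 0.741 and 2.34 CPM of AOX1C.

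UCP1, the uncoupling protein of the carrier family, was higher at 2 h of heat, where AOX1C and NDA1 were lower (NDA1 not called). Over the 40 libraries its r was positive, at 0.47 with AOX1C and 0.46 with NDA1. At 2 h UCP1 had 16.6, 11.9, 11.7 and 13.2 CPM in hot leaves, against 7.92, 7.12, 5.67 and 8.86 CPM in warm leaves. Every hot library lay above every warm one, and 20% of all genes had groups that did not overlap, in either direction. UCP1 rose by 0.85 ± 0.19 (SE) on the log2 scale (95% interval 0.46 to 1.24, limma adjusted p = 0.00498), where 3.63% of all genes were called higher. The call held without each of the 8 libraries but not with lane as a term (0.77, adjusted p = 0.0598), and within lane 2, 2 hot libraries lay 0.66 above 1 warm library.

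At 6 h of heat UCP1 had 9.13, 9.19, 6.97 and 7.79 CPM, against 6.91, 4.85, 6 and 6.35 CPM in warm leaves. The hot libraries again lay above the warm ones, and 20.6% of all genes had groups that did not overlap, in either direction. The log2 change of 0.45 (95% interval 0.07 to 0.84) did not pass (limma adjusted p = 0.159). At 24 h hot leaves had 13.1, 11.3, 11.3 and 11.6 CPM and warm leaves had 11.6, 13.6, 11 and 11.8 CPM, a log2 change of -0.02 (95% interval -0.41 to 0.36). The change at 24 h was lower than that at 2 h by 0.87 ± 0.27 on the log2 scale, a difference that did not pass (limma adjusted p = 0.11), in a comparison in which 0.321% of genes were called lower.

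Cold did not move UCP1 beyond its spread. Cold leaves had 6.86, 10.3, 8.44 and 5.72 CPM at 2 h, 5.47, 7.09, 4.78 and 6.27 CPM at 6 h, and 10.3, 13.4, 12.9 and 11.9 CPM at 24 h. All 3 groups overlapped warm leaves, and the 95% intervals of the changes lay between -0.42 and 0.45. Against cold leaves, hot leaves were higher at 2 h by 0.78 ± 0.19 on the log2 scale (limma adjusted p = 0.00476), with no overlap, and this call held with lane as a term (0.81, adjusted p = 0.0445). Of all genes, 6.73% were called higher there and 21.9% had groups that did not overlap, in either direction.

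In warm leaves UCP1 had 8.63, 6.98, 7.62 and 13.3 CPM at 0 h, and its lowest warm group was 6 h and its highest 24 h. The log2 level at 24 h lay 0.44 ± 0.19 (SE) above that at 0 h, the same time of day. The warm hours differed with an adjusted p of 0.000371 (limma F test), over a log2 range of 1.00. In the order of its 10 group means, hot 2 h came first, then cold, warm and hot leaves at 24 h, and the 6 h groups of warm and cold leaves came last. Each neighbouring pair in that order overlapped. For AOX1C 7 of 9 neighbouring pairs overlapped, with breaks between hot 2 h and warm 6 h and between cold 6 h and hot 6 h. For NDA1 6 of 9 did, with breaks on both sides of hot 2 h and between cold 6 h and hot 6 h.

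Of 12 loci listed for the alternative pathway, AOX1D and NDA2 are not analysed here and 10 were measured. At 2 h of heat 2 of the 10 rose and 1 fell, beside 8.20% of all genes called, and the median log2 change was -0.08 beside 0.01 for all genes. At 6 h 0 rose and 2 fell, beside 6.90% of all genes called, with a median of -0.24 beside -0.04. The further gene that rose at 2 h was NDB1 (LOC_Os06g47000), a dehydrogenase on the outer side of the inner membrane. It had 44.1, 40.4, 45.1 and 38.5 CPM in hot leaves, against 20.4, 28.6, 27.5 and 26.7 CPM in warm leaves. The hot libraries all lay above the warm ones, and 20% of all genes had groups that did not overlap, in either direction. The log2 change was 0.71 ± 0.18 (limma adjusted p = 0.0141). It no longer passed when lane was a term (adjusted p = 0.0811) or without warm 2 h replicate 1 (0.60, adjusted p = 0.0658).

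NDB1 was also higher in hot than in cold leaves at 2 h, by 0.67 ± 0.18 on the log2 scale (limma adjusted p = 0.0117), and it differed over the warm hours (adjusted p = 0.0068). PTOX (LOC_Os04g57320), the plastid relative of alternative oxidase, ran from 14.2 to 49.7 CPM and passed no test. NDC1 (LOC_Os06g11140), a further type II dehydrogenase, ran from 18.9 to 64.9 CPM and passed none. NDB2 (LOC_Os05g26660) had 3 reads or fewer in 21 libraries, and its change of -1.48 at 6 h of heat did not pass (adjusted p = 0.268). NDB3 (LOC_Os08g04630) ran from 0.195 to 6.47 CPM and passed only over the warm hours (limma adjusted p = 0.0491), a call lost with voom weights (0.117), with only the warm groups fitted (0.106), and in 12 of the 16 fits that left out 1 warm library.

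Genes of the main route of respiration, taken by product name, were set beside the bypass genes. That list holds assembly proteins (such as COX11, COX15 and copper chaperones) beside subunits, and it does not cover the whole chain. Of 33 genes of the respiratory chain, 0 rose and 1 fell at 2 h, and 1 rose and 1 fell at 6 h, which is 3.03% and 6.06% of the list beside 8.20% and 6.90% of all genes. In hot against cold leaves 3 were higher and 1 was lower at 2 h (12.1%, beside 15.1% of all genes), and 4 were higher and 1 was lower at 6 h (15.2%, beside 8.28%). At 6 h the hinge protein of ubiquinol-cytochrome c reductase (LOC_Os02g33730) rose by 0.88 on the log2 scale, and a succinate dehydrogenase iron-sulfur subunit (LOC_Os08g02640) fell by 0.58. Of 50 mitochondrial carriers other than UCP1, 2 rose and 2 fell at 2 h, and 2 rose and 4 fell at 6 h. That is 8% and 12% of the list, beside 8.20% and 6.90% of all genes. In hot against cold leaves 4 were higher and 6 were lower at 2 h (20%, beside 15.1%). At 6 h 0 were higher and 5 were lower (10%, beside 8.28%). Against warm leaves, LOC_Os05g28870 (0.90) and LOC_Os05g23720 (0.83) had the largest rises in log2 change and LOC_Os10g42299 (-2.54) the largest fall, all at 6 h. LOC_Os08g40850 fell by 1.67 at 2 h.

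Markers of other cell types were set beside these changes. At 2 h of heat 2 of 24 dividing-cell markers (cyclin B, core histones and PCNA) were lower. That is 8.33% of the list, beside 8.20% of all genes called and 4.58% called lower. Their median log2 change was -0.38, beside 0.01 for all genes. Their summed level was 334 to 577 CPM in hot leaves and 507 to 701 CPM in warm leaves. At 6 h 2 of 24 were lower (8.33%, beside 6.90% of all genes called and 4.51% called lower). The median was -0.82, beside -0.04 for all genes, with sums of 288 to 316 CPM in hot leaves and 358 to 687 CPM in warm leaves. Cyclin B and PCNA had mean log2 levels of 1.16 and 1.48 over the 40 libraries, and the highest core histone had 6.34. The sums therefore rest mainly on histones. Only 1 of the 24 (LOC_Os09g39730) was at 0 in every library of a group, in both hot 2 h and warm 0 h. The 3 vascular cellulose synthase genes had low mean log2 levels of 0.98, -0.36 and -0.85 over the 40 libraries, and 0 calls. Their sums at 2 h were 0.272 to 8.55 CPM in hot leaves and 3.48 to 17.2 CPM in warm leaves. The median change there was -2.25, beside 0.01 for all genes. At 6 h the sums were 0.195 to 14.4 CPM in hot leaves and 1.15 to 14.3 CPM in warm leaves. The median was then -1.13, beside -0.04. SLAC1, the guard cell anion channel, changed by -0.42 at 2 h and -0.20 at 6 h and was not called. The part of these cell types in the AOX1C, NDA1 and UCP1 changes was not tested.

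Among genes with a mean log2 level of at least 2, the 3 most like each bypass gene over the 40 libraries were listed by Pearson r of log2 levels. For AOX1C they were LOC_Os03g25850 (0.969), LOC_Os02g58310 (0.966) and LOC_Os03g12700 (0.965), all named expressed proteins. For NDA1 they were a NAD-dependent epimerase (LOC_Os08g28730, 0.96), an NADPH reductase (LOC_Os08g14570, 0.96) and LOC_Os02g42940 (0.96). For UCP1 they were a phosphoglycerate kinase (LOC_Os02g07260, 0.78), an F-box protein (LOC_Os07g06670, 0.77) and LOC_Os12g03060 (0.77). AOX1A and AOX1B had no gene above an r of 0.65 and 0.63, with LOC_Os06g19690 and LOC_Os10g34930 at those values. The next for AOX1A were an ethylene-responsive transcription factor (LOC_Os01g54890, 0.64) and LOC_Os01g06660 (0.62). For AOX1B they were a UDP-glucose 6-dehydrogenase (LOC_Os03g55070, 0.59) and LOC_Os04g44550 (0.58). Deviations from group means gave lower values for the AOX1C genes (r of 0.45 to 0.54) and the UCP1 genes (0.19 to 0.34), and 0.65 to 0.76 for the NDA1 genes. They gave 0.60 to 0.72 for the AOX1A genes and 0.54 to 0.59 for the AOX1B genes.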

How the data were processed

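The authors deposited 1 table of log2 values per gene and library, in the form that limma voom writes: log2 of the read count plus an offset of 0.5, per 1e6 reads of a scaled library size. The submitters' processing notes name edgeR 3.4.2, limma 3.20.1, featureCounts 1.5.0-p1, Subread 1.5.0-p1, FastQC 0.11.2, SAMtools 1.1-26, bcl2fastq and bedtools, and the build IRGSP-1.0. Libraries were stranded and depleted of ribosomal RNA, and reads were single end with 61 cycles, per the labels' protocols. How strand was set in counting, which low counts were filtered and how libraries were scaled is not given in the sources used here.

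Whole reads were recovered from the table (100% of values within 0.001 reads), and CPM in the text leaves out the offset. Floors of 3 reads cover counting error only, since reads are not independent molecules. With limma 3.58.1 (R 4.3.3; trend, robust, two-sided), the 10 groups were fitted in a single model to all 19308 genes. Calls had an adjusted p under 0.05 (Benjamini-Hochberg, within each of 12 comparisons). Changes are log2 differences, which the offset understates for low genes. Python 3.11.15 with numpy 2.4.6, pandas 2.3.3 and matplotlib 3.10.9 served for tables and plots. The fit was tested on simulated data.

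The members, lists and tests were chosen with earlier results of these data known. Every member and measured gene of the alternative pathway list is named, with the 2 largest rises and falls among passing genes of the other lists and the 3 genes most like each member. Alternatives were log2 of CPM plus 1, a filter at a mean log2 value of 1, libraries shifted to 1 median, quantile normalization, voom weights, only the groups compared, a replicate block, lane as a term, the libraries that stood apart left out, and each library left out. No promoter or protein sequence was used here.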

Additional observations from a re-analysis of the deposited data

Results flagged for a closer look

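Of 50 groups of 4 libraries (5 genes in 10 groups), 3 held a library whose gap to its nearest neighbour was large against the range of the group in log2 level, and chance alone gives about 1 in 20. AOX1B in cold 2 h replicate 1 was at 0.722 CPM, against 2.04 to 2.30 CPM in the other 3 libraries. AOX1B in warm 24 h replicate 3 was at 1.37 CPM, against 0.703 to 0.778 CPM in the others, and it stands for 2 reads, under that library's floor of 3 reads (2.06 CPM). NDA1 in cold 24 h replicate 2 was at 63.4 CPM, against 36.3 to 37.5 CPM in the others. AOX1B was called in no comparison, and NDA1 was called in none that uses the cold 24 h group.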

How the results depend on the processing

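Calls for AOX1C at 6 h of heat, against warm and against cold leaves, and for UCP1 and NDA1 at 2 h of heat against cold leaves held under each alternative run. The filter at a mean log2 value of 1 gave no value for AOX1B and NDB3. Of the 5 genes, depth limits AOX1B most, with 3 reads or fewer in 8 libraries. Where a call or count below changed, the cause was not tested, except that fewer libraries were fitted when some were left out.

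Counts of all genes called moved as follows. For cold against warm, log2 of CPM plus 1 gave 4 genes at 2 h and 2 at 6 h, quantile normalization 1 at 2 h, voom weights 4 at 2 h and 2 at 6 h, and leaving out the libraries that stood apart 1 at 2 h and 1 at 6 h. For hot against warm, lane as a term gave 553 genes at 2 h, 267 at 6 h and 1 at 24 h, only the groups compared 2639 at 2 h and 2793 at 6 h, and leaving out the libraries that stood apart 2705 at 2 h and 2110 at 6 h. For hot against cold, lane gave 1767 at 2 h and 957 at 6 h, and only the groups compared 4365 at 6 h. For the hot change at 24 h against that at 2 h, lane gave 374 and only the groups compared 47.

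Leaving out 1 library gave 582 to 1690 calls for hot against warm at 2 h (beyond 1.5 times without hot replicates 1, 3 or 4 or warm replicates 1, 3 or 4), 658 to 1131 at 6 h (hot replicates 2 or 4, warm replicate 1) and 0 to 3 at 24 h (hot replicate 2). It gave 1664 to 2849 for hot against cold at 2 h (hot replicates 3 or 4, cold replicate 3), 1009 to 1312 at 6 h (hot replicate 2, cold replicate 1) and 0 to 423 at 24 h (hot replicate 2). It gave 0 to 1 for cold against warm at 6 h (warm replicates 1 or 4) and 0 to 1 at 24 h (warm replicate 2). For the hot change at 24 h against that at 2 h it gave 31 (warm 24 h replicate 2) to 711 (hot 24 h replicate 2), with 10 libraries beyond 1.5 times: hot 2 h replicates 2, 3 and 4, hot 24 h replicates 1 and 2, warm 2 h replicates 1, 3 and 4, and warm 24 h replicates 1 and 2.

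Changes of sign came only in values that passed on neither side. With lane as a term AOX1A at hot 24 h was -0.30, UCP1 was 6.6e-05 at hot 24 h and -0.046 at cold 2 h and -0.089 at cold 24 h, AOX1C was 0.46, 0.70 and 0.51 in cold at 2, 6 and 24 h, and NDA1 was 0.27 and 0.17 in cold at 6 and 24 h. For hot against cold at 24 h lane gave AOX1B 0.18, UCP1 0.089 and NDA1 -0.19, and leaving out the libraries that stood apart gave NDA1 -0.20. With 1 median AOX1A at hot 24 h was -0.00029, UCP1 at cold 24 h -0.033 and UCP1 for hot against cold at 24 h 0.0023. With quantile normalization AOX1A at hot 24 h was -0.027, and UCP1 was 0.013 at cold 6 h, -0.035 at cold 24 h and 0.00087 for hot against cold at 24 h. With voom weights UCP1 at cold 24 h was -0.012.

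Leaving out 1 library also let these log2 changes cross 0. AOX1A ran from -0.41 to 0.21 at cold 2 h, -0.43 to 0.28 at hot 24 h, and for hot against cold from -0.37 to 0.25 at 2 h and -0.18 to 0.17 at 6 h. AOX1B ran from -1.11 to 0.074 at cold 2 h, -0.70 to 0.28 at hot 6 h, and for hot against cold from -0.0074 to 0.97 at 6 h and -0.76 to 0.093 at 24 h. AOX1C ran from -0.25 to 0.15 at cold 6 h and -0.33 to 0.16 for hot against cold at 24 h, where NDA1 ran from -0.20 to 0.25. UCP1 ran from -0.075 to 0.20, -0.13 to 0.062 and -0.044 to 0.080 at cold 2, 6 and 24 h, from -0.075 to 0.035 at hot 24 h and from -0.10 to 0.019 for hot against cold at 24 h.

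Deviations from group means correlated at a mean of 0.001 between libraries of the same replicate number and 0 between others. Of 40 libraries, 11 matched their own number best. The same-numbered pairs included libraries of different temperatures, which share no tank. The check therefore cannot tell whether same-numbered libraries of the same temperature came from the same tank. The replicate block likewise joined equal numbers across temperatures. With the replicate block 1613 genes were called at hot 2 h and 1345 at hot 6 h, and of the calls in the report that for NDB3 over the warm hours alone was lost (adjusted p = 0.0544).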
